A study of Mus musculus with 4 samples.

Results

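The cytosolic ribosomal protein genes encode the proteins of the small and the large subunit of the ribosome that translates messenger RNA in the cytoplasm. Members were the rows of the count tables that GENCODE vM21 gives as protein coding and whose symbol is Rpl or Rps with a number, with an optional closing letter or l, or Rplp0, Rplp1, Rplp2 or Rpsa. The rule found 79 genes among the 37681 rows, of which 31 belong to the small subunit, 45 to the large subunit and 3 to the large subunit's stalk. Rpl24 and Rpl41 were not analysed here. Rps4l, with 0 reads in each library, and Rpl6l, with 119, 72, 110 and 43 reads, are annotated as pseudogenes and fell outside the rule.

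Transcripts were read by mRNA sequencing, as 50-base reads, in cultured marrow cells from wild-type mice of the C57BL/6 strain. The medium contained L929 supernatant, commonly used to supply M-CSF, on which macrophages depend. There were 4 groups of 1 library each: unstimulated cells without shRNA, cells without shRNA given 100 nM Pam3Cys4 for 5 h, unstimulated cells with an shRNA against lncRNA-COX2, and cells with that shRNA given 100 nM Pam3Cys4 for 5 h. Values below follow this order. Pam3Cys4 is a lipopeptide sensed by TLR2 with TLR1, and lncRNA-COX2 is a long noncoding RNA whose gene lies near Ptgs2. Both libraries without shRNA have the letters EV in their titles, left unexplained by the labels, and the animals behind each library are not described.

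Ribosomal proteins assemble with ribosomal RNA into both subunits of the ribosome, and their mRNAs are among the most abundant of a growing cell. Most of these mRNAs start with a C followed by a run of pyrimidines, the TOP motif, through which mTOR and the protein Larp1 set how well they are translated. Mouse ribosomal protein mRNAs have also been copied back into the genome many times as processed pseudogenes, which carry nearly the same letters as the spliced mRNA. Per the submitters' processing notes, reads were aligned with TopHat and counted with HTSeq, and the tables hold the alignments to several places as a summary line outside any gene, so a read that matches a member and a copy equally well does not count for the member.

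The libraries held 47385277, 51979051, 65826838 and 59400238 gene reads, and the summary line of alignments to several places made up 28.7, 29.9, 27.0 and 27.3% of all totals. All 9 macrophage markers were read in every library, with summed levels of 6204, 9128, 7092 and 9306 CPM (reads scaled to a common library total), while the summed levels of the granulocyte, lymphocyte, erythroid and stromal lists lay at 0.874 CPM or less. The Y-linked gene Kdm5d had 0, 1, 730 and 665 reads and the Y-linked Ddx3y 3, 4, 921 and 1116, so both libraries with shRNA carried Y-linked reads and those without carried almost none. In every shRNA comparison below the shRNA and this difference cannot be told apart. With 1 library per group, each interval given for a ratio or a share covers counting error only, at 95%.

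How much of a member's coding sequence a 50-base read can tell from other genes was measured first. Each member's chosen transcript was cut into all 50-base windows over its coding sequence and 50 bases to each side, and each window was searched in the transcripts of all other GENCODE vM21 genes. Exon bases further out were left out, though counted reads may lie there. Of 79 members, 78 had at least 1 window within 2 mismatches of another gene, and the median member shared windows with 14 annotated pseudogenes. No coding window of 60 members differed from every other gene by more than 2 bases. Rpl7a, a large subunit protein, shared windows with 161 pseudogenes, Rpl29 with 123 and Rpl21 with 112. At the other end, Rpl3l, a paralogue of Rpl3 known from heart and skeletal muscle, shared none. Windows without an exact match elsewhere made up 92.1% of Rpl8, 93.0% of Rps3 and 81.3% of Rpl4, but 11.6% of Rpl3 and 0% of Rpl12 and Rpl5. Rpl12 still had 870, 886, 1041 and 798 reads and Rpl5 112, 166, 169 and 135. Where in these genes the reads lay was not tested.

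The following coding windows show what a 50-base read had to tell apart, and the genes were chosen after their counts were seen. Each pair gives a member and the copy whose row holds the most reads among its pseudogenes, at the coding window where they differ most by at most 6 bases, 5′ to 3′ on the coding strand, with differing bases in capitals. Rpl12 and its copy had no differing base in any window, Rpl37 and Rps26 differed from theirs by 1 base in the window shown, and Rpl14 by 6.
Rpl12: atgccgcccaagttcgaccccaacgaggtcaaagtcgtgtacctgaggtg
Gm10275: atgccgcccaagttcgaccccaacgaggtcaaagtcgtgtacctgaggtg
Rpl37: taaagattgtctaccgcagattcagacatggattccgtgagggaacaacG
Rpl37rt: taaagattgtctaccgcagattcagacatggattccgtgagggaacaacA
Rps26: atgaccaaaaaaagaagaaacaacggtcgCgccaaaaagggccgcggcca
Rps26-ps1: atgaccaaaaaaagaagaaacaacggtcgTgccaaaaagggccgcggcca
Rpl14: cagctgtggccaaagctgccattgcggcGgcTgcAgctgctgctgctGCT
Rpl14-ps1: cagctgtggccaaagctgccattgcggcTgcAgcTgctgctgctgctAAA

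The reads of several of these copies exceeded those of the gene. Rpl14 had 456, 853, 881 and 1165 reads and Rpl14-ps1 had 20717, 19947, 33174 and 19121. Rpl37 had 594, 962, 1365 and 1023 reads against 14467, 18869, 22903 and 14718 in Rpl37rt. In both pairs the copy held more reads in each of the 4 libraries. Among the 76 members with a pseudogene row in the tables, 18 had a copy with more reads in all 4 libraries, Rpl39l among them, which itself had no read. Rps26 and Rps26-ps1 crossed: Rps26 had 7078, 12429, 19105 and 22692 reads and the copy 10522, 10139, 14189 and 9229, so that the copy was ahead only in unstimulated cells without shRNA. Whether these reads came from the copies or from mRNA of the gene that was aligned there was not tested.

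**Figure D1:**
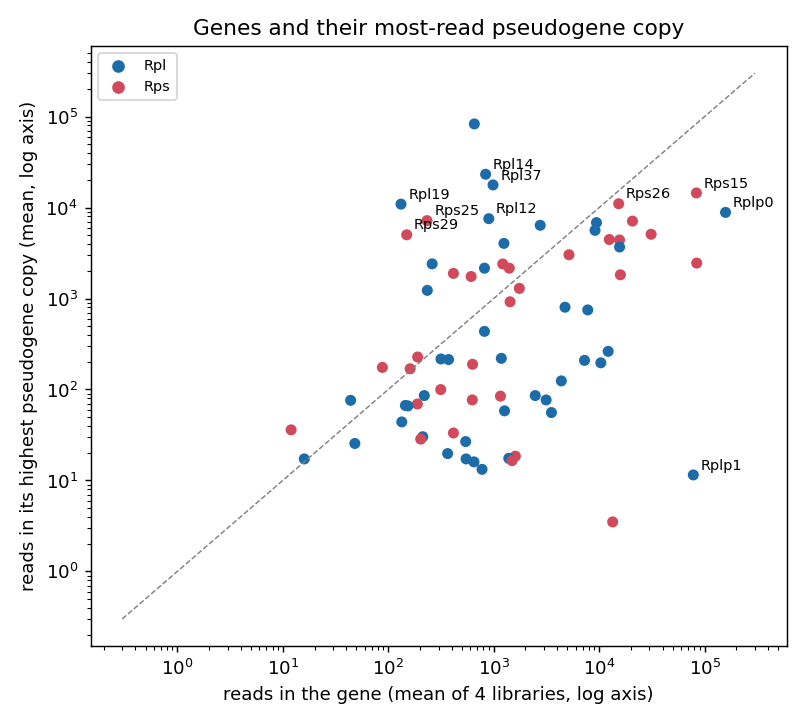
Reads of each ribosomal protein gene (x) against reads of its most-read pseudogene copy (y), each the mean of 4 libraries on a log axis, with the dashed line at equal reads. Rpl14 and Rpl37 lie far above the line, while Rplp0, Rps15 and Rplp1 lie below it.

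The members together took 1.719% of gene reads in unstimulated cells without shRNA (interval 1.716 to 1.723%), 1.58% after Pam3Cys4, 1.47% in unstimulated cells with shRNA and 1.249% with shRNA after Pam3Cys4 (interval 1.246 to 1.252%). The share was thus lower after Pam3Cys4 than before it in both shRNA states, and lower with shRNA than without in both stimulation states. Without shRNA the direction for Pam3Cys4 turns with the scaling: the summed TMM-scaled counts of all members had a ratio of 1.04. The same ratio was 0.934 for Pam3Cys4 with shRNA, 0.926 for the shRNA in unstimulated cells and 0.829 after Pam3Cys4. The 852 pseudogene rows that share windows with members, of which 590 had a read, took a further 0.478, 0.498, 0.579 and 0.442%. The 5 members with the most reads, among them Rplp0 and Rpl8, alone held 64.4, 61.1, 62.7 and 60.7% of all member reads.

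Levels per kilobase were taken over the annotated exons of all transcripts of a gene joined. The highest was that of Rplp1, an acidic protein of the stalk, at 2797 CPM per kilobase averaged over the libraries. It was followed by Rps15 at 2352, the stalk base Rplp0 at 1714 and Rpl8 at 1537. Rpl3l at 0.0978, Rps27 at 0.216, Rpl23a at 0.334, Rpl39 at 0.601 and Rpl35 at 0.638 were the lowest members with reads. Rpl10l and Rpl39l, paralogues known from the testis, had 0 reads in all libraries, which allows up to 3 reads in each. Member levels thus lay far apart in these tables, with an SD of 3.22 log2 units over the 75 members that have reads and at least 1 unique window.

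Dividing by unique windows in place of exon length gave an SD of 2.59 log2 units, while the ratio of the highest to the lowest level was 28590 per kilobase and 62400 per unique window. The counts divided are those of the whole gene, while the windows cover only the coding sequence and 50 bases to each side. Spearman's rho between a member's level and its share of unique windows was 0.533 per kilobase and 0.296 per unique window, over the same 75 members, which share the 4 libraries. Grouped by cut-offs chosen after the values were seen, the 16 members with at least 50% unique windows had a median level of 234 CPM, the 28 with 20 to 50% had 21.2 CPM and the 35 with under 20% had 7.40 CPM. Of the 10 highest members per kilobase, 8 were also among the 10 highest per unique window, where Rplp1, Rplp0, Rps15, Rpl13a and Rpl8 led. Rpl3l, with unique windows throughout and 14, 11, 8 and 2 reads, was the lowest on both scales.

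**Figure D2:**
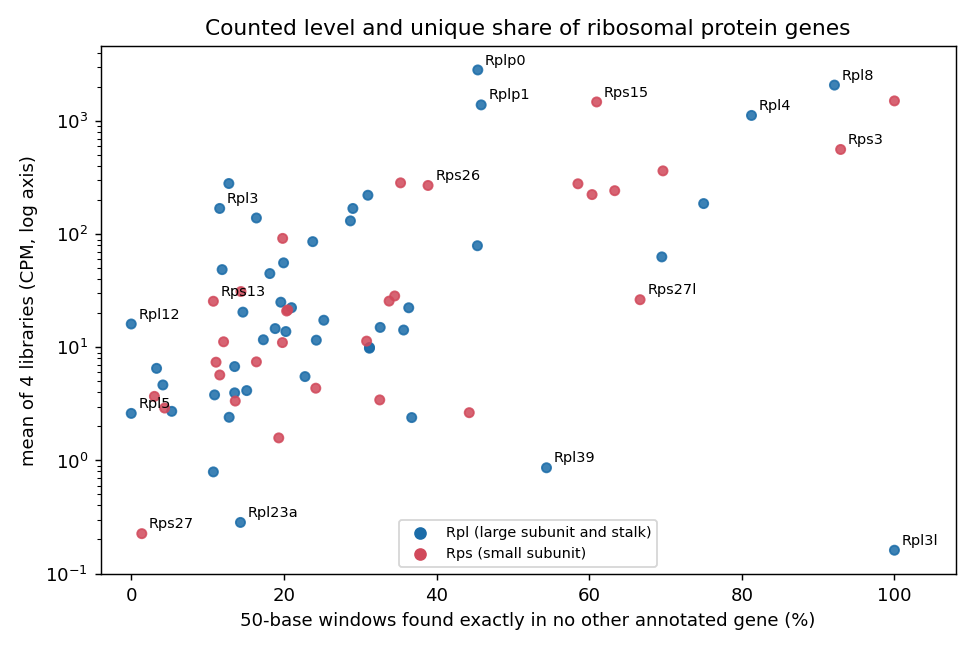
Mean level over 4 libraries (y, CPM on a log axis) against the share of 50-base windows that match no other annotated gene exactly (x, percent) for the members with reads. Rpl8, Rpl4 and Rps3 are high at the right, Rpl3l is low at 100%, and members under 20% lie mostly under 100 CPM.

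Exons of 37 members overlap those of another gene, 16 of them a coding gene, and in 8 the overlap with a single gene covers at least 20% of the exon bases. It reached 66.2% in Rpl35, with Wdr38 on the other strand, and 59.7% in Rpl23a, with Tlcd1 on the other strand. Rpl35 had 36, 33, 39 and 68 reads and Rpl23a 12, 18, 23 and 11. The strand setting of the counting is not given in the sources used here, and whether an overlap altered a count was not tested.

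For each pair of libraries, ratios of counts scaled by TMM (a scaling by the trimmed mean of gene ratios) were taken for members that reached 5 CPM in the higher of both libraries. This left 59 members for Pam3Cys4 without shRNA, 57 for Pam3Cys4 with shRNA, 58 for the shRNA in unstimulated cells and 59 for the shRNA after Pam3Cys4. In all 4 comparisons 55 members passed, and 18 passed in none. Rpl19, of the large subunit, is one of these, with 228, 111, 123 and 67 reads, against 13528, 13281, 10548 and 6274 in its copy Rpl19-ps11. A ratio was counted as apart when it reached 1.2-fold, or 2-fold, with an interval that excluded 1, and the counts below take only members past the filter in that comparison. Below the filter, 2-fold was also reached by Rps27 (3.10, interval 1.34 to 7.97) for Pam3Cys4 without shRNA and by Rps25 (2.74) and Rpl35 (2.12, 1.41 to 3.22) for Pam3Cys4 with shRNA. For the shRNA it was reached by Rpl19 (0.422, 0.336 to 0.528) in unstimulated cells and by Rps27 (0.384, 0.164 to 0.832) and Rpl3l (0.167, 0.0180 to 0.767) after Pam3Cys4.

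After Pam3Cys4 without shRNA the median log2 ratio of the 59 members was 0.18, beside -0.001 for all 9555 genes measured. Of the members 25 were at least 1.2-fold higher, where 30.2% of all genes were, and 6 were at least 1.2-fold lower, where 31.3% of all genes were. The lower side thus held fewer members than its background share. With library totals in place of TMM the split was 16 higher and 14 lower. The shares of all genes called were not taken under that scaling. The members' median was then 0.01, while that of all genes moved to -0.19, so the members stayed above the median gene by a like amount. Of the small subunit members 11 of 25 were higher and 4 lower, and of the large subunit members with the stalk 14 of 34 were higher and 2 lower.

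Ratios of 2-fold or more were few: 2 members higher (background 7.07%) and 1 lower (6.51%). Rps25, a small subunit protein, had 97, 452, 118 and 266 reads. Without shRNA it passed the filter only through its stimulated library, at 8.95 CPM against 1.86 CPM. Both stimulated libraries were above their unstimulated partners, with a ratio of 4.81 (interval 3.85 to 6.05) without shRNA and 2.74 (2.20 to 3.43) with shRNA, where it stayed below the filter at 4.85 CPM. It stood at 24.2% unique windows, and its copy Rps25-ps1 had 7070, 5722, 9713 and 6231 reads. On the other strand, Trappc4 overlaps 17.2% of its exon bases and Ccdc84 7.7%, and whether this altered its counts was not tested. Rps4x, the X-linked small subunit protein, had 711, 1381, 1094 and 1455 reads, higher in each stimulated library than in its unstimulated partner, with ratios of 2.004 (1.83 to 2.20) and 1.61 (1.49 to 1.75).

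Rps13, a small subunit protein, had 2848, 1016, 1411 and 352 reads. The unstimulated library without shRNA was the highest and the stimulated library with shRNA the lowest. Its ratio after Pam3Cys4 was 0.368 (0.342 to 0.396) without shRNA and 0.303 (0.269 to 0.341) with shRNA. Of its windows 10.8% were unique, and the copy Rps13-ps2, which matches 404 of its 502 windows exactly, had 1776, 2703, 1793 and 2362 reads, higher in the stimulated libraries.

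After Pam3Cys4 with shRNA the median of 57 members was -0.05 (0.02 for 9601 genes), with 12 members at least 1.2-fold higher (background 29%) and 10 lower (27.2%). With library totals these were 9 and 22, and the shares of all genes called were not taken under that scaling. With TMM both shares lay below the background. Rps6, the small subunit protein that S6 kinases phosphorylate, stood apart with 102, 143, 135 and 878 reads. The stimulated library with shRNA held several times the reads of the others, which lay near each other, and the ratio there was 7.89 (6.58 to 9.53) with shRNA against 1.45 (1.11 to 1.88) without. Rps6 had 11.6% unique windows, none of them a coding window more than 2 bases from every other gene. Of the members past the filter, Rps6 alone was 2-fold higher (background 6.30%), and 2 were 2-fold lower (3.53%), Rps13 and Rps16. At 1.96, 2.83, 2.03 and 15.99 CPM, Rps6 passed the filter only through the library where it was high. Its place among the higher members thus follows in part from the filter. Rps16 had 5699, 5208, 7041 and 2752 reads, with a ratio of 0.474 (0.454 to 0.496) with shRNA and 0.943 (0.908 to 0.979) without.

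**Figure D3:**
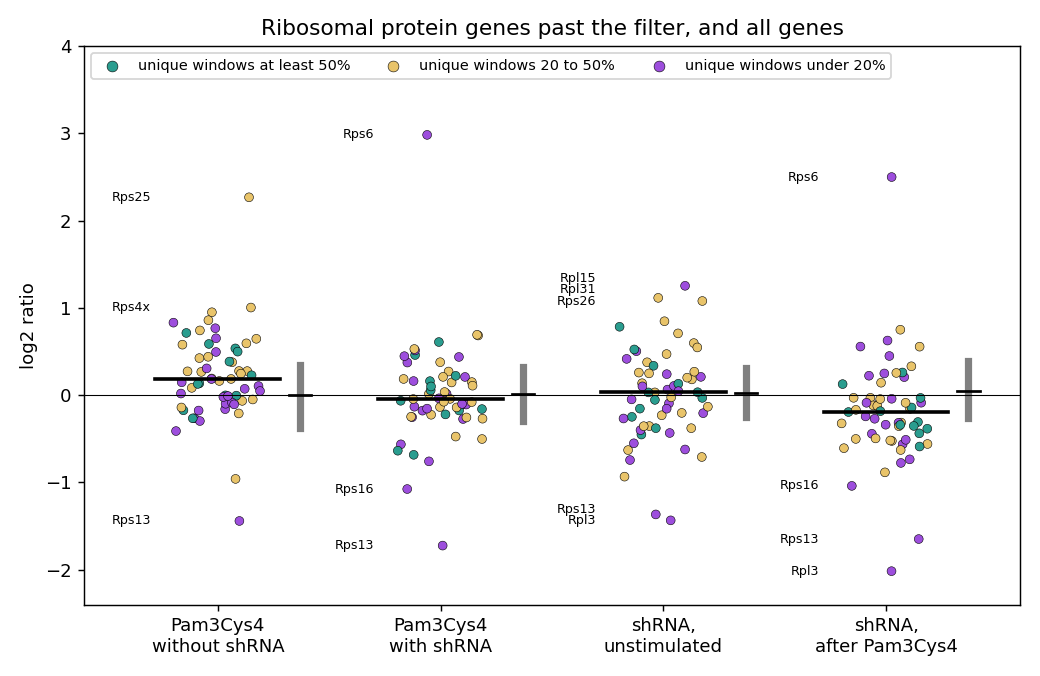
Log2 ratios of the ribosomal protein genes past the filter in each comparison (points, coloured by share of unique windows; horizontal spread is for legibility), with their median as a black line and the median and quartiles of all genes as a grey bar beside them. Members at 2-fold or more are named to the left of each column, and none of them has 50% unique windows or more.

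The shRNA in unstimulated cells left the median member at 0.03 (58 members), beside 0.02 for 9651 genes. Of the members 15 were at least 1.2-fold higher (background 28.1%) and 16 lower (24.3%), shares close to those of all genes. At 2-fold, 3 were higher (7%), namely Rpl15, Rpl31 and Rps26, and 2 lower (4.82%), Rpl3 and Rps13. Rpl31 passed the filter only through the library with shRNA, at 7.14 CPM against 3.30 CPM. Rpl15 had 614, 838, 1869 and 1404 reads, higher in both libraries with shRNA, with ratios of 2.38 (2.17 to 2.61) in unstimulated cells and 1.54 (1.41 to 1.68) after Pam3Cys4.

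After Pam3Cys4 the same shRNA comparison gave a median of -0.19 for 59 members, beside 0.05 for 9702 genes. Of the members 28 were at least 1.2-fold lower, where 25.2% of all genes were, and 7 were at least 1.2-fold higher, where 32.7% of all genes were. In all, 45 of the 59 had a log2 ratio below 0. The lower members included genes with high counts. Rplp0 had 174568, 153352, 174349 and 130225 reads and log2 ratios of -0.36 in both stimulation states. Rpl8 had 119597, 115450, 128673 and 101328 reads, with -0.25 in unstimulated cells and -0.31 after Pam3Cys4. Both were lower with shRNA in each state. Rps15 had 88451, 71305, 115682 and 59333 reads, with 0.03 and -0.39, so the library with shRNA and Pam3Cys4 was the low one. Rps14 had 13131, 17969, 18361 and 12980 reads, with 0.13 and -0.59, and at 252, 356, 276 and 237 CPM the stimulated library without shRNA was the high one. Rpl4, with 59875, 57893, 78179 and 56994 reads, lay at 0.03 and -0.14. Among the 12 measured members with at least 50% unique windows the median was -0.25, with 10 below 0, so the lower values were not limited to members with many copies.

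Rpl3, which lies close to the peptidyl transferase centre, had the lowest shRNA ratios of the members past the filter. It had 14286, 12246, 6755 and 3288 reads, and both libraries with shRNA were below both without. The ratio was 0.370 (0.359 to 0.381) in unstimulated cells and 0.247 (0.238 to 0.257) after Pam3Cys4. Its copy Rpl3-ps1, which matches 1061 of its 1260 windows exactly, had 5391, 6071, 5937 and 5075 reads. At 2-fold, 3 members were lower after Pam3Cys4 (background 5.58%), Rpl3, Rps13 and Rps16, and Rps6 alone was higher (9%), with a ratio of 5.65 (4.73 to 6.79). Here too Rps6 passed the filter only through its high library, at 15.99 CPM against 2.83 CPM.

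**Figure D4:**
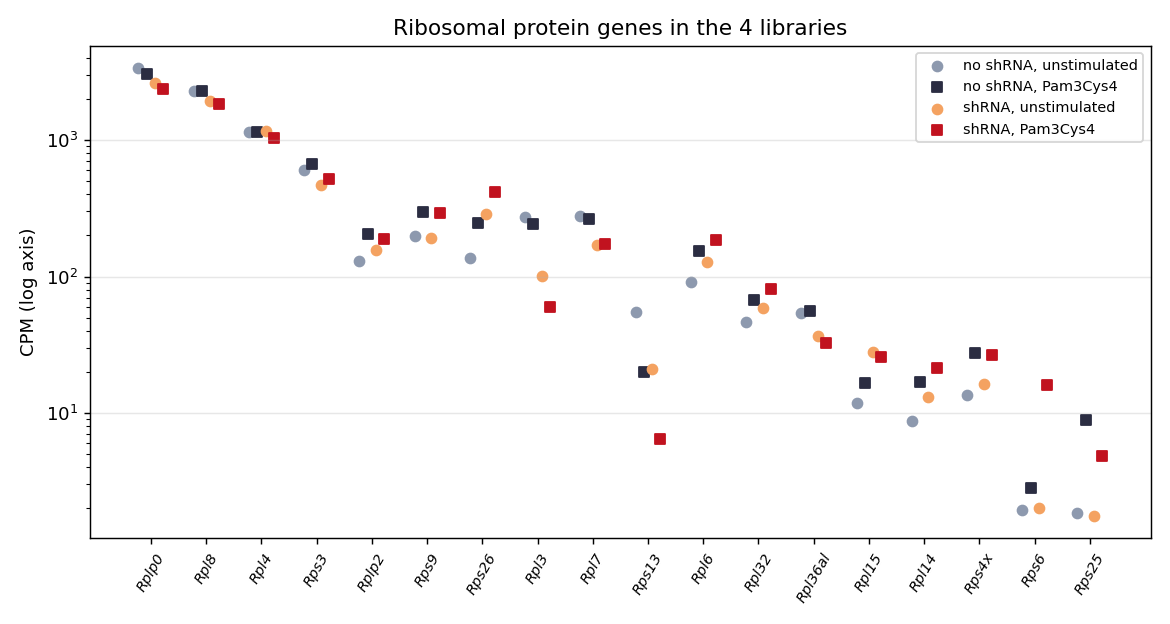
Levels (CPM on a log axis) of 18 members in the 4 libraries: 4 with high counts, the stalk gene Rplp2, those past the additive test, Rps6 and Rps25. Circles are unstimulated and squares stimulated libraries; Rpl3 and Rps13 are lowest with shRNA and Pam3Cys4, and Rps26 is highest there.

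Unstimulated and stimulated pairs share no library, and their shRNA ratios had a Pearson r of 0.784 and a Spearman rho of 0.687 over the 56 members measured in both, beside 0.929 and 0.762 over 9339 genes. Both ratios were below 0 in 25 members and above 0 in 12. The Pam3Cys4 ratios in the 2 shRNA states had r of 0.686 and rho of 0.567 over 55 members, beside 0.865 and 0.791 over 9142 genes. These coefficients describe genes within the same libraries, which are not independent replicates.

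The Pam3Cys4 ratio with shRNA divided by that without was below 1 for most members. Over 61 members with enough reads the median log2 value was -0.26, beside 0.02 for 9857 genes. At least 1.2-fold smaller ratios with shRNA were found for 30 members, where 18.8% of all genes had them, and larger ones for 3, where 22.2% had them. At 2-fold, Rps6 alone was larger (background 1.94%) and none was smaller (1.64%). Rps6 reached the required 5 CPM only in the stimulated library with shRNA. In 26 small subunit members 14 were smaller, and in 35 large subunit and stalk members 16. Rps16 at -0.99, Rpl37 at -0.88 and Rps21 at -0.86 had the lowest values. Rps6 at 2.45, Rpl7a at 0.85 and Rpsa, the laminin receptor homologue of the small subunit, at 0.46 had the highest, and the stalk gene Rplp0 lay at 0.00. The difference has no test, since there is 1 library for each combination.

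**Figure D5:**
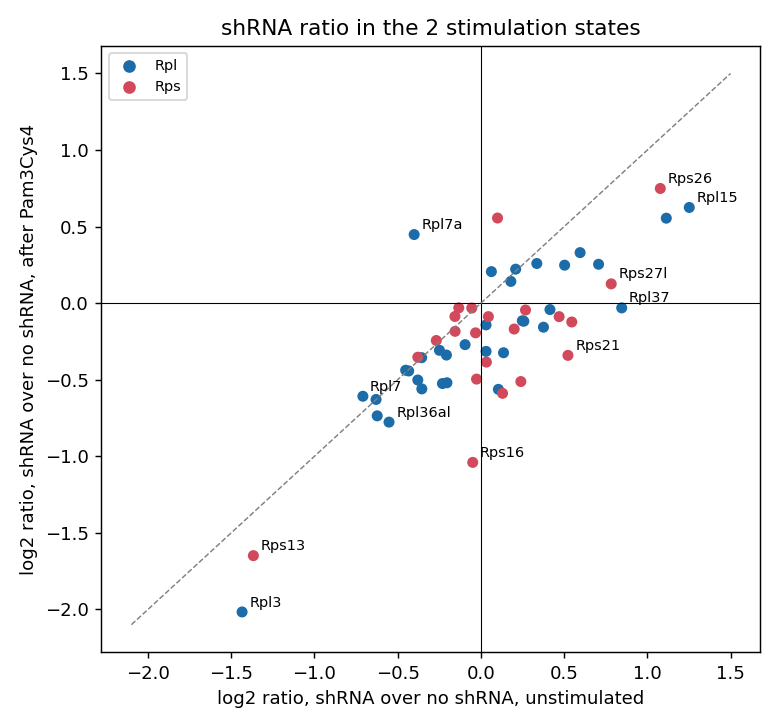
Log2 ratio of shRNA over no shRNA in unstimulated cells (x) and after Pam3Cys4 (y) for the 56 members measured in both, with a dashed line at equal values. More points lie below the line than above it, Rpl3 and Rps13 are low in both states, and Rpl7a and Rps21 have opposite signs.

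The design allows a test of an additive model only, in which the levels of one factor serve as repeats for the other, and the spread between cultures is not covered. The test, edgeR's quasi-likelihood F test with Benjamini-Hochberg adjustment at 0.05 over 9559 genes, included 56 members. For the shRNA 2 members were higher (background 12.3%) and 4 lower (8.66%). For Pam3Cys4 6 were higher (11.9%) and 1 lower (10.9%). At the adjusted threshold the shares of members lower with shRNA and higher with Pam3Cys4 were close to those of all genes. The shares higher with shRNA and lower with Pam3Cys4 were below them. At unadjusted p under 0.05 there were 6 members higher and 13 lower for the shRNA, beside 2025 and 1552 of the 9559 genes, so on the lower side the members' share was above that of all genes. For Pam3Cys4 these were 8 and 3 members, beside 2006 and 1945 genes. With library totals in place of TMM 12 members were lower with shRNA, and the share of all genes was not taken there.

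Lower with shRNA in edgeR's test were Rps13 (log2 -1.503, SE 0.15, adjusted p = 0.00401), Rpl3 (-1.73, SE 0.18, adjusted p = 0.00469), Rpl7 (-0.66, SE 0.11, adjusted p = 0.0207) and Rpl36al (-0.67, SE 0.13, adjusted p = 0.0297). Rpl7, which binds RNA in the large subunit, had 14473, 13402, 11317 and 9553 reads, and Rpl36al, a paralogue of the X-linked Rpl36a, had 2827, 2831, 2464 and 1795. In all 4 genes both ratios were below 1. Higher with shRNA were Rps26 (0.91, SE 0.14, edgeR adjusted p = 0.0135), which contacts mRNA before the start codon, and Rpl15 (0.94, SE 0.20, edgeR adjusted p = 0.035).

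With Pam3Cys4, Rps13 fell by 1.58 on the log2 scale (SE 0.15, edgeR adjusted p = 0.00684). Rps4x rose by 0.85 (SE 0.15, edgeR adjusted p = 0.0246), Rps9 by 0.60 (adjusted p = 0.0261), Rpl14 by 0.81 (adjusted p = 0.0285), Rps26 by 0.69 (adjusted p = 0.0289), Rpl6 by 0.64 (adjusted p = 0.0296) and Rpl32 by 0.50 (adjusted p = 0.0473). Rps9, which helps to hold the decoding accuracy of the small subunit, had 10282, 14960, 12655 and 15895 reads and 63.4% unique windows. Rpl32, of the large subunit, had 2417, 3395, 3900 and 4416 reads and 69.5%. Rpl6 had 4737, 7808, 8581 and 10079 reads, with 16.4%. In each of these 6 the stimulated library was above its unstimulated partner in both shRNA states. Of the genes past either test, these 2, Rps9 and Rpl32, had at least 50% unique windows.

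Promoters in the RefSeq table of GRCm38.p6 were matched by symbol for 59 of the 79 members. The 30 bases around the annotated start, 15 to each side, are given for the members past the additive test that have an entry, because the start of the mRNA holds the TOP run. The longest run of C and T is in capitals, and the strand given reads 5′ to 3′.
Rpl14 (chr9:120571502-120571531, strand +): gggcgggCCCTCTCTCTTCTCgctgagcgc
Rpl15 (chr14:18270972-18271001, strand -): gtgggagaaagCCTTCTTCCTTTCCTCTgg
Rpl36al (chr12:69184053-69184082, strand -): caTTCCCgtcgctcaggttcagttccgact
Rpl6 (chr5:121204486-121204515, strand +): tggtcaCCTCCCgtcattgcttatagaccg
Rps13 (chr7:116334176-116334205, strand -): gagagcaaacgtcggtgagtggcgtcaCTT
Rps26 (chr10:128626492-128626521, strand -): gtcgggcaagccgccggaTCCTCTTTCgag
Rps4x (chrX:102189377-102189406, strand -): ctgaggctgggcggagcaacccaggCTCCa
Rps9 (chr7:3704026-3704055, strand +): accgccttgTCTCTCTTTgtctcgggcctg

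Rpl15 and Rpl14 had the longest runs among these, of 17 and 14 bases, and Rps26 and Rps9 had 9, while Rps13 had 3 and Rpl36al 5 in these windows. Members higher with Pam3Cys4 thus had long runs (Rpl14, Rps9, Rps26) and short ones (Rpl6 with 6, Rps4x with 4). A run of at least 8 C or T within 25 bases of the start, on the transcribed sense strand, was found in 49.2% of the 59 member promoters and in 19.4% of 27025 promoters. The motifs searched were chosen after promoter sequences of members had been seen, over the whole 300 bases and on both strands. CGGAAG, the core bound by ETS factors such as Gabpa, was in 67.8% against 17.2% of all, CTTTCC in 47.5% against 26.3%, and TATAAA in 8.47% against 14.2%. A match is a description of letters and shows no binding.

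The paralogues differed in level. Rps27l, known as a p53 target, had 896, 1422, 1970 and 1686 reads, against 8, 24, 6 and 10 for Rps27, of which 1.38% of windows were unique against 66.7% for Rps27l. Rps27l was higher in each of the other 3 libraries than in unstimulated cells without shRNA. The 4 X-linked members were Rps4x, Rpl10, with 322, 316, 430 and 396 reads, Rpl36a, with 209, 227, 227 and 216, and Rpl39, with 42, 48, 58 and 45. None of the last 3 varied among libraries as Rps4x did. In the stalk, Rplp2 had 6788, 10290, 10374 and 10306 reads and Rplp1 62107, 78150, 94320 and 78405, both lowest without shRNA and stimulus, while Rplp0 was highest there in CPM.

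Other genes of the pathway were taken from lists made by function. The 6 ribosomal proteins outside the symbol rule had 5 measured members, all with Pam3Cys4 ratios above 1 without shRNA. Rps3a1, a small subunit protein, was the one of these past edgeR's test for Pam3Cys4 (0.85, adjusted p = 0.0299). Rack1, a scaffold on the small subunit, had 135126, 148063, 172435 and 150311 reads, and none of its log2 ratios reached 0.2. The mitochondrial ribosomal proteins, 77 genes that translate the mitochondrial mRNAs, had medians of 0.03, 0.05, 0.01 and 0.01 in the 4 comparisons in the order above, and their median log2 Pam3Cys4 ratio with shRNA over that without was -0.01, beside -0.26 for the cytosolic members. The same value was -0.15 for the 20 other TOP mRNAs, 6 of them at least 1.2-fold smaller, and -0.30 for 26 pseudogenes named after a member, 14 of them smaller. In edgeR's additive test 3 of 72 mitochondrial genes were higher and 4 lower with Pam3Cys4 (background 11.9 and 10.9%), and 2 and 2 with shRNA (12.3 and 8.66%), all below the shares of all genes.

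The 20 other TOP mRNAs had a median log2 ratio of 0.21 for Pam3Cys4 without shRNA, 0.00 with shRNA, 0.04 for the shRNA in unstimulated cells and -0.13 after Pam3Cys4. None passed edgeR's test for Pam3Cys4, with 2 higher and 1 lower at unadjusted p under 0.05, and with shRNA 1 was higher (Vim) and 2 were lower (Eef1b2 and Nap1l1). Tpt1, a TOP mRNA, had 16566, 27000, 36181 and 28256 reads, lowest in unstimulated cells without shRNA. Of 39 ribosome biogenesis genes, 17 were at least 1.2-fold lower with shRNA after Pam3Cys4 (background 25.2%) and none higher (32.7%), with a median of -0.21. In unstimulated cells 14 were lower with shRNA (24.3%) and 2 higher (28.1%), with a like median of -0.19. In edgeR's test 4 of the 39 were lower with shRNA, close to the 8.66% of all genes, and none was higher (12.3%). Among the 4 was Nop58 (-0.71, edgeR adjusted p = 0.0188), a core protein of box C/D particles. At unadjusted p under 0.05 in that test, 13 of the 39 were lower and none higher, beside 1552 and 2025 of 9559 genes. On the lower side the share of the list was thus above that of all genes. Of the 23 factors in the initiation list, which leaves out those held in the TOP list, 16 were at least 1.2-fold higher after Pam3Cys4 without shRNA (background 30.2%) and 10 with it (29%), and none of these 23 was lower in either. Eif4b and Eif3e, of the TOP list, had log2 ratios of -0.35 with Pam3Cys4 without shRNA and -0.86 with shRNA, respectively. Of the 23, 6 rose in edgeR's test for Pam3Cys4 (11.9%), among them Eif1 (0.90, adjusted p = 0.0136), Eif2s2 (0.91, adjusted p = 0.0216) and Eif6 (0.65, adjusted p = 0.0223), which keeps the large subunit apart from the small. Among 23 genes that control TOP mRNAs, 3 rose with Pam3Cys4 in edgeR's test, a share close to the 11.9% of all genes. These were Myc (1.47, edgeR adjusted p = 0.0199), Eif4e (0.58, adjusted p = 0.0343) and Larp1 (0.49, adjusted p = 0.047). Only Eif4ebp2, an inhibitor of cap-dependent initiation, fell, by 0.60 on the log2 scale (edgeR adjusted p = 0.0276, background 10.9%). With shRNA 2 of these 23 were higher (12.3%) and 2 lower (8.66%) in the same test. Mtor had log2 ratios of -0.11 and -0.10 with Pam3Cys4 and 0.25 and 0.26 with shRNA, and did not pass either test. Of 12 measured genes of RNA polymerase I, none passed for the shRNA (2 higher and 2 lower at unadjusted p under 0.05) and Ubtf fell by 0.69 on the log2 scale with Pam3Cys4 (edgeR adjusted p = 0.0398). Of 16 chaperones and importers of ribosomal proteins, Nap1l1 and Heatr3 were lower with shRNA and none passed edgeR's test for Pam3Cys4 (2 higher and 2 lower at unadjusted p under 0.05). The 189 pseudogenes named after a member had 24 measured rows in each comparison, with medians of 0.25, 0.07, -0.06 and -0.11.

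Since these are bulk cultures, fewer cells of a type and less mRNA per cell cannot be told apart in any of these levels. Whether the shared reads, the Y-linked difference between the libraries or the spread between cultures had a part in the ratios of the members was not tested.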

How the data were processed

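Messenger RNA was sequenced in 4 libraries, 1 per group. The deposited values are whole-number counts of reads in each gene. Per the submitters' processing notes, the authors used CASAVA 1.8, TopHat, HTSeq and NCBIM37. For TopHat and HTSeq the versions, and for counting the annotation and strand setting, were not given in the sources used here. All 5 HTSeq summary lines, 33.5, 34.4, 32.5 and 32.6% of the totals, stayed out of library sizes. Names, biotypes, chromosomes and exon lengths came from GENCODE vM21, which is on GRCm38, by gene ID (32661 of 37681 matched). Exon length was the union of the exons of all annotated transcripts of a gene. Levels per kilobase thus divide counts made on NCBIM37 by lengths from GRCm38.

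Counts were scaled with TMM factors (1.10, 0.972, 1.01 and 0.924) in edgeR 4.0.16, R 4.3.3. Ratios of library pairs carry exact conditional binomial intervals and the ratio of ratios a delta-method interval, where each library had 10 counts or more and the highest at least 5 CPM. A count of 0 was set to 3 counts in ratios. The additive edgeR quasi-likelihood test took genes that reached 5 CPM in 2 or more libraries. It had 1 residual degree of freedom, 3.76 prior ones and a common BCV (biological coefficient of variation) of 0.137. Its p-values measure the spread between these libraries only. On simulated counts over 9559 genes for the shRNA effect, it recovered 14 of 50 genes changed 1.5-fold, 42 of 50 changed 2-fold and 50 of 50 changed 4-fold. These counts held no Pam3Cys4 effect and no interaction, and every gene had the common BCV, so recovery in the real counts can differ. DESeq2 1.42.0, other scalings and no filter were alternatives.

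Windows were aligned with bwa 0.7.19-r1273, without gaps, to GENCODE vM21 transcripts only, so unannotated copies were not seen. For each gene 1 transcript was used, by APPRIS, CCDS and support level. Members, gene lists and rules for named genes were chosen with earlier results of these data known. Named were any members, plus genes of the lists, Kdm5d and Ddx3y, and copies chosen after their reads were seen. The level of lncRNA-COX2 was not analysed here. The values of some members are not reported here by name.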

Additional observations from a re-analysis of the deposited data

Results flagged for a closer look

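The members Rps21 and Rpl7a stood out because the shRNA ratio lay on opposite sides of 1 in the 2 stimulation states, by at least 1.2-fold on each side. These differences were not tested, since there is 1 library for each combination. Rps21, a small subunit protein with 69.7% unique windows, had 16755, 19009, 30770 and 16304 reads. Its log2 ratio of shRNA over no shRNA was 0.52 in unstimulated cells and -0.34 after Pam3Cys4, a difference of -0.864. Rpl7a, a large subunit protein with 17.3% unique windows and windows shared with 161 pseudogenes, had 689, 502, 667 and 744 reads. Its log2 shRNA ratio was -0.40 in unstimulated cells and 0.45 after Pam3Cys4, a difference of 0.849, and its Pam3Cys4 ratio was -0.41 without and 0.44 with shRNA, which is the same difference of 0.849 seen from the other factor.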

How the results depend on the processing

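Of 73 alternative values 44 stayed within the limits set for them, 27 moved and 2 changed sign. The values for members with at least 50% unique windows had no limit, and were counted as moved unless the sign changed. Scaling by library totals shifted the median of all genes to -0.19, -0.12, -0.10 and -0.03 in the order Pam3Cys4 without shRNA, Pam3Cys4 with shRNA, shRNA unstimulated and shRNA after Pam3Cys4, and the members' medians to 0.005, -0.177, -0.089 (reversed) and -0.267, with 16 members higher and 14 lower in the first and 22 lower in the second. DESeq2 size factors gave medians of 0.175, -0.064, 0.018 and -0.218, and no filter gave -0.053 in the second and -0.213 in the fourth. Members with at least 50% unique windows, a choice made after seeing the data, gave 0.181, -0.005, -0.001 (reversed) and -0.251. In the additive test no filter gave 4 higher and 12 lower for the shRNA and 10 higher and 6 lower for Pam3Cys4. DESeq2 gave 7 and 2 lower, and library totals 12 and 3 lower. The share of all genes called was taken under the main setting only, so the member counts under the alternatives have no background beside them. Over all totals in place of gene reads the members' shares were 1.14, 1.04, 0.989 and 0.842%, in the same order of libraries. TMM without the members moved none of these results past its limit. The cause of each shift was not tested, except that all totals add reads outside genes. The 0 reads of Rpl10l and Rpl39l allow up to 3 reads in each library. No paired analysis was possible because each group has 1 library and the labels carry no replicate numbers.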
